A study of Mus musculus with 8 samples.

Results

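The genes described here are 46 components of the DNA replication machinery, chosen by symbol from the 54532 genes of the deposited RNA-Seq table, and all 46 passed the filter on low counts among the 13560 genes tested. They comprise the origin recognition complex (ORC), the factors that load and activate the MCM helicase, the helicase itself, the sliding clamp and its loader, the replicative polymerases with primase, the single-strand binding protein RPA, a ligase and a flap nuclease for lagging-strand fragments, and enzymes that supply deoxynucleotides. The rule is the gene symbol alone and uses no measured value, but the list was chosen with earlier results of these data known.

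The libraries came from sorted LSK cells, the Lin- c-Kit+ Sca-1+ bone marrow compartment of stem and progenitor cells, of C57BL/6 mice that carried floxed Zeb1 alleles and Mx1-Cre and were 8 to 12 weeks old. The interferon-responsive Mx1 promoter drives Cre after pIpC injection, also in cells outside the blood lineage, and cells were taken 14 days after pIpC treatment had ended. Zeb1-/- EpCAM+ cells gave 4 libraries and Zeb1-/- EpCAM- cells gave 4, so every library is from Zeb1-deleted mice and no control mice enter the comparison. The labels give 4 mice per genotype and do not say whether 1 mouse gave both fractions. If libraries were not from separate mice, the p-values measure only the spread between these samples.

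Each library held between 14114491 and 17073546 counted reads, made from 1 ng of amplified cDNA. Epcam, the gene of the sorting antigen, stood at 8.99, 3.77, 1.43 and 1.25 CPM (counts per 1e6 reads of the TMM-scaled library size) in EpCAM- libraries 1 to 4 and at 234, 161, 171 and 183 CPM in EpCAM+ libraries 1 to 4. Zeb1, the deleted gene, stood at 13.4, 14.0, 10.7 and 9.49 CPM in EpCAM- and at 23.7, 14.8, 20.8 and 18.8 CPM in EpCAM+, and its log2 fold change of EpCAM+ minus EpCAM- was 0.72 ± 0.17 SE (adjusted p = 0.00798). These counts cover the whole gene, so they do not separate reads of the deleted exons from reads of the rest. Kit was present in all libraries (245, 155, 221 and 212 CPM in EpCAM- and 308, 244, 328 and 259 CPM in EpCAM+), while Ly6a, which encodes Sca-1, was at 71.7, 61.3, 16.4 and 15.7 CPM in EpCAM- against 351, 195, 140.4 and 116 CPM in EpCAM+.

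Replication starts where ORC marks origins on chromatin and, with CDC6 and CDT1, loads the MCM2-7 ring during G1. At the onset of S phase kinases, MCM10, CDC45 and the GINS complex turn the loaded rings into active helicases, RPA coats the unwound strands, and polymerase alpha-primase lays primers that polymerases delta and epsilon extend on the PCNA clamp. Many of these genes are transcribed in late G1 under E2F control, and in bone marrow their transcripts are abundant in cycling progenitors and scarce in quiescent stem cells.

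Most of the replication genes were lower in EpCAM+ cells. By edgeR's quasi-likelihood test, 30 of the 46 fell, 0 rose and 16 did not pass, whereas 20.8% of all tested genes were called lower and 21.8% higher in the same comparison. The counts by role given below stand beside these same shares. The log2 fold changes of the 30 ranged from -0.19 to -0.85, that is, group means 12.4% to 44.6% lower, and 5 fell by more than 1.5-fold. The 16 without a call ranged from 0.12 to -0.20. The median log2 fold change was -0.31 over the 46 genes and 0.02 over all tested genes.

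In 28 of the 46 genes all EpCAM+ libraries lay below all EpCAM- libraries, against 20.0% of the tested genes. The summed level of the 46 genes was 9447, 10227, 10242 and 10925 CPM in EpCAM- libraries 1 to 4 and 7912, 8863, 8325 and 8426 CPM in EpCAM+ libraries 1 to 4, so the fractions did not overlap. As a share of all counted reads this was 0.990 ± 0.035% in EpCAM- and 0.860 ± 0.058% in EpCAM+ (SD, n = 4). In sorted populations fewer cells of a type and less RNA per cell cannot be told apart, so a lower level may be either.

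**Figure D1:**
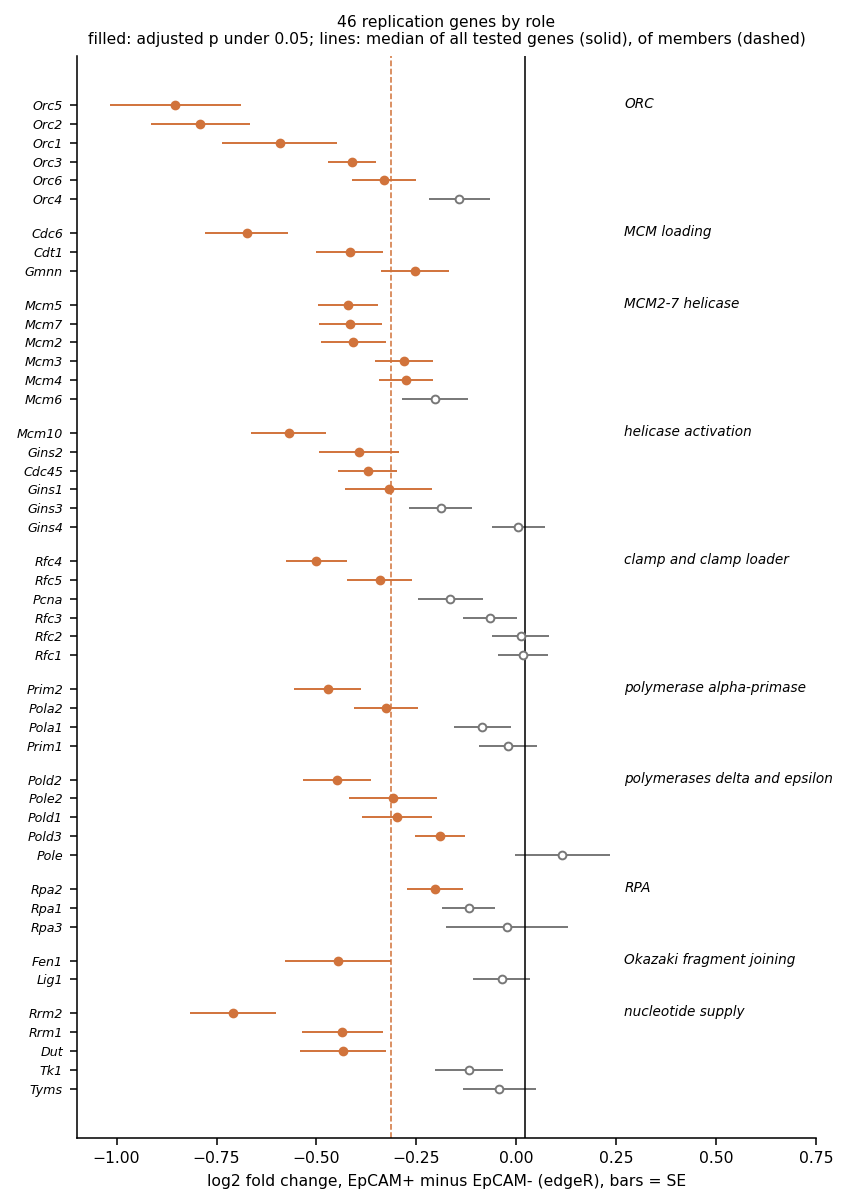
Log2 fold change (EpCAM+ minus EpCAM-, x axis, edgeR, bars are SE) of the 46 replication genes, grouped by role. Filled points are the 30 genes with an adjusted p under 0.05, all to the left of the solid line at the median of all tested genes (0.02), and open points are the 16 without a call.

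The libraries with equal numbers in both fractions deviated together, so the paired values bear on these counts. In 34 of the 46 genes EpCAM+ was below EpCAM- in all 4 numbered pairs, against 30.6% of the tested genes. With the replicate block 32 of the 46 genes fell and 0 rose, against 24.7% of the tested genes called lower. The additional genes were Mcm6, a helicase subunit, and Pcna, the sliding clamp, with paired adjusted p = 0.0298 and 0.0405.

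**Figure D2:**
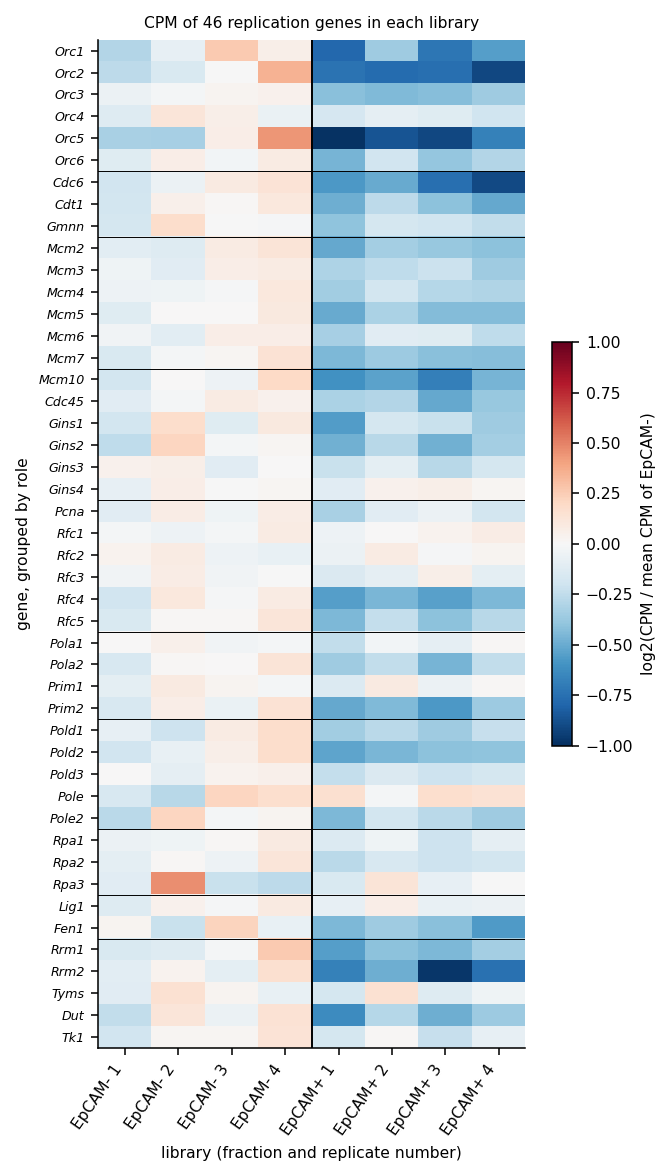
Level of each of the 46 genes (rows, grouped by role) in each library (columns), as log2 of CPM over the mean CPM of the 4 EpCAM- libraries. Blue fills most rows of the 4 EpCAM+ columns, with Orc2, Orc5, Cdc6 and Rrm2 among the darkest, while Gins4, Rfc1, Rfc2, Prim1 and Lig1 are pale in all 8 columns.

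To show the sequence that E2F factors read, the 250 bases before the RefSeq start sites (GRCm38.p6) were searched on both strands for the letters TTTCCCGC, TTTGGCGC, TTTCGCGC and TTTGCCGC, in 38 of the 46 genes for which a promoter was at hand. A match was found in 9 of the 38 genes (23.7%), compared with 394 of 9740 tested genes with a promoter (4.05%). The 9 genes were Orc1, Orc3, Cdc6, Mcm5, Mcm6, Mcm7, Gins3, Rfc3 and Pola1. A match was held by 5 of the 25 genes that fell and by 4 of the 13 without a call. CCAAT, the letters read by NF-Y, was found in 23 of the 38 genes (60.5%) and in 40.7% of the tested genes with a promoter, and GGGCGG, a GC box, in 28 of the 38 (73.7%) and in 63.5%. A match is a string of letters, not a measured binding site. RefSeq start sites differ from the gene bounds used for the counts in some genes, so some searched bases lie inside the counted gene.

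The following promoters are shown 5′ to 3′ in the direction of the gene, with the E2F letters of either strand in capitals, for 3 genes that fell (Orc1, chr4:108579204-108579453, plus strand; Cdc6, chr11:98907901-98908150, plus strand; Mcm5, chr8:75109259-75109508, plus strand) and for 2 without a call (Mcm6, chr1:128359706-128359955, minus strand; Rfc3, chr5:151651209-151651458, minus strand). In Mcm5 and at the first site of Mcm6, matches on opposite strands overlap and read as 1 capital run of 12 bases. As counted, Cdc6 begins at chr11:98907801, so all bases shown for it lie inside the counted gene. The matches of Orc1 (counted from chr4:108579423) and Rfc3 (counted up to chr5:151651242) also lie inside the counted genes.
Orc1: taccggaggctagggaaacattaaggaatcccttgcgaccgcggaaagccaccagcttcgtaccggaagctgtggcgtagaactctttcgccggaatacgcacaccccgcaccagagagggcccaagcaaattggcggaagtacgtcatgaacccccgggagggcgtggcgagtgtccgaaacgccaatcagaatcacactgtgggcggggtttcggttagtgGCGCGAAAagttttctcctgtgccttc
Cdc6: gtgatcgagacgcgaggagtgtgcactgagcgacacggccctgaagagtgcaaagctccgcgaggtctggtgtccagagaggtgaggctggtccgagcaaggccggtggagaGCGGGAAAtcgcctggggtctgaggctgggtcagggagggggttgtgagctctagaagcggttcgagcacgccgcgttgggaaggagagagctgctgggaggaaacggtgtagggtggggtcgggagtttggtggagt
Mcm5: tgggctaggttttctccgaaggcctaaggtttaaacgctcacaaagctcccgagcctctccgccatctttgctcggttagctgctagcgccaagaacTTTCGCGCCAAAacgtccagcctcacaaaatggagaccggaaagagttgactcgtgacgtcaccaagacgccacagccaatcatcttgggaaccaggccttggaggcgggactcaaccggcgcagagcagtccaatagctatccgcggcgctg
Mcm6: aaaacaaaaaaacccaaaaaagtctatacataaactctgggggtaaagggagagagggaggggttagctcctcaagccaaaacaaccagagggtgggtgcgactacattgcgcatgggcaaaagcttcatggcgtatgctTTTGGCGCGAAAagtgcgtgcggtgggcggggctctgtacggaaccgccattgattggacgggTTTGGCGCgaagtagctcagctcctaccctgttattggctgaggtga
Rfc3: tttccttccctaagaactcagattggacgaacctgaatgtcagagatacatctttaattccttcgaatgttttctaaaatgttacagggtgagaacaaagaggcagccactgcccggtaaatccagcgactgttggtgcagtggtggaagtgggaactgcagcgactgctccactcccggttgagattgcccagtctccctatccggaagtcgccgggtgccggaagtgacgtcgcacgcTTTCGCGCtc

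ORC is the 6-subunit complex that binds origins, and 5 of its 6 genes fell in EpCAM+ cells. Orc3, a core subunit, was at 108, 112, 115 and 116 CPM in EpCAM- libraries 1 to 4 and at 84.5, 83.1, 84.1 and 88.2 CPM in EpCAM+ libraries 1 to 4. Its levels were tight within each fraction and did not overlap (log2 fold change -0.41 ± 0.06 SE, adjusted p = 0.000667). Orc2 was at 57.2, 61.6, 68.3 and 87.1 CPM in EpCAM- and at 41.1, 40.2, 40.6 and 36.4 CPM in EpCAM+. All EpCAM+ values were below the lowest EpCAM- value, and EpCAM- library 4 was the highest (log2 fold change -0.79 ± 0.12 SE, adjusted p = 0.000949). Of the exonic bases of Orc2, 29.8% are shared with Nif3l1 on the opposite strand.

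Orc5, an ATP-binding subunit at chr5:22486485-22550429 (GRCm38), had the largest fall of the 46 genes, from 84.4 ± 22.7 CPM in EpCAM- to 46.7 ± 4.38 CPM in EpCAM+ (SD, n = 4 each, log2 fold change -0.85 ± 0.16 SE, adjusted p = 0.00264). Its EpCAM- libraries 1 to 4 were at 67.2, 67.0, 88.4 and 115 CPM. The log2 differences of numbered pairs 1 to 4 were -0.66, -0.53, -0.97 and -1.12, so the size of this fall rests in part on EpCAM- libraries 3 and 4. Orc1, the subunit whose ATPase drives MCM loading, fell by 33.7% of its mean and Orc6 by 20.5%. Orc4 did not pass, with 58.7, 69.9, 67.0 and 61.5 CPM in EpCAM- and 57.1, 60.5, 59.2 and 56.0 CPM in EpCAM+. Its fractions overlapped (log2 fold change -0.14 ± 0.08 SE, adjusted p = 0.15).

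All 3 genes of the loading step fell. Cdc6, the loader that joins ORC, was at 115, 125, 139 and 143 CPM in EpCAM- and at 87.7, 92.0, 77.5 and 69.6 CPM in EpCAM+. The fractions were far apart, and the mean was 37.4% lower in EpCAM+ (log2 fold change -0.67 ± 0.10 SE, adjusted p = 0.000896). Cdt1, which brings the MCM ring to ORC, was at 111, 129.6, 127 and 135 CPM in EpCAM- and at 89.2, 104, 94.3 and 87.7 CPM in EpCAM+, without overlap (log2 fold change -0.42 ± 0.08 SE, adjusted p = 0.00328). Gmnn, which encodes the CDT1 inhibitor geminin, fell from 147 ± 14.6 CPM in EpCAM- to 123 ± 8.34 CPM in EpCAM+, and its fractions touched (log2 fold change -0.25 ± 0.09 SE, adjusted p = 0.036). The fall of Gmnn was no longer called in 6 of the 8 fits that left out 1 library.

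The 6 genes of the MCM2-7 ring had log2 fold changes between -0.20 and -0.42, and 5 of the 6 passed the test. Mcm5 was at 501, 548, 546 and 584 CPM in EpCAM- and at 384, 437, 403 and 404 CPM in EpCAM+ (log2 fold change -0.42 ± 0.08 SE, adjusted p = 0.00181). Mcm7 was at 554, 609, 624 and 680.2 CPM in EpCAM- and at 452, 478, 461 and 459 CPM in EpCAM+ (log2 fold change -0.41 ± 0.08 SE, adjusted p = 0.00228). In both genes the fractions did not overlap and EpCAM- library 4 was the highest. Mcm2 fell by 0.41 on the log2 scale, and Mcm3 and Mcm4 both by 0.28. Mcm6, at 830.2, 792, 894 and 892 CPM in EpCAM- and 675, 789, 783 and 714 CPM in EpCAM+, had fractions that came close to each other without overlapping, and it did not pass without the pairing (log2 fold change -0.20 ± 0.08 SE, adjusted p = 0.0695).

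Of the 6 genes that turn the loaded ring into a helicase, 4 fell. Mcm10, which triggers unwinding, was at 56.4, 64.4, 62.1 and 73.8 CPM in EpCAM- and at 42.3, 44.3, 40.0 and 46.4 CPM in EpCAM+, with no overlap (log2 fold change -0.57 ± 0.09 SE, adjusted p = 0.00119). Cdc45, which joins MCM2-7 and GINS in the active helicase, was at 109, 116, 125 and 121 CPM in EpCAM- and at 94.7, 96.2, 82.7 and 90.7 CPM in EpCAM+, again with no overlap (log2 fold change -0.37 ± 0.07 SE, adjusted p = 0.00303). Of the GINS genes, Gins2 and Gins1 fell by 0.39 and 0.32 on the log2 scale, and Gins3 had a log2 fold change of -0.19 ± 0.08 SE (adjusted p = 0.0786).

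Gins4 was at 112, 124, 118 and 120.3 CPM in EpCAM- and 109.9, 123, 124 and 120.4 CPM in EpCAM+. Its log2 fold change was 0.00 ± 0.07 SE (adjusted p = 0.96), and its sign turned under other scalings and tests. Of the exonic bases of Gins2, 67.3% are shared with Gse1 on the opposite strand, and without strand their reads cannot be told apart.

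Of the 6 genes of the clamp and its loader, replication factor C, 2 fell, not far from the 20.8% lower among all tested genes. Rfc4, a small subunit, was at 149, 183, 169 and 179.8 CPM in EpCAM- and at 116, 124, 117 and 125 CPM in EpCAM+. Those fractions lay well apart (log2 fold change -0.50 ± 0.08 SE, adjusted p = 0.000881). Rfc5 was at 262, 293, 293 and 317 CPM in EpCAM- and at 213, 247, 219 and 239.7 CPM in EpCAM+, also without overlap (log2 fold change -0.34 ± 0.08 SE, adjusted p = 0.00733).

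Rfc1, the large subunit, was at 110.5, 109, 111 and 119 CPM in EpCAM- and at 109, 113, 115 and 118 CPM in EpCAM+. The fractions covered the same range (log2 fold change 0.02 ± 0.06 SE, adjusted p = 0.842). Rfc2 was at 575, 595, 542 and 534 CPM in EpCAM- and at 538, 595, 556 and 573 CPM in EpCAM+, and these overlapped as fully (log2 fold change 0.01 ± 0.07 SE, adjusted p = 0.919). The sign of both log2 fold changes turned with DESeq2. Rfc3 had a log2 fold change of -0.07 ± 0.07 SE and Pcna of -0.16 ± 0.08 SE, and neither passed (adjusted p = 0.453 and 0.13).

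**Figure D3:**
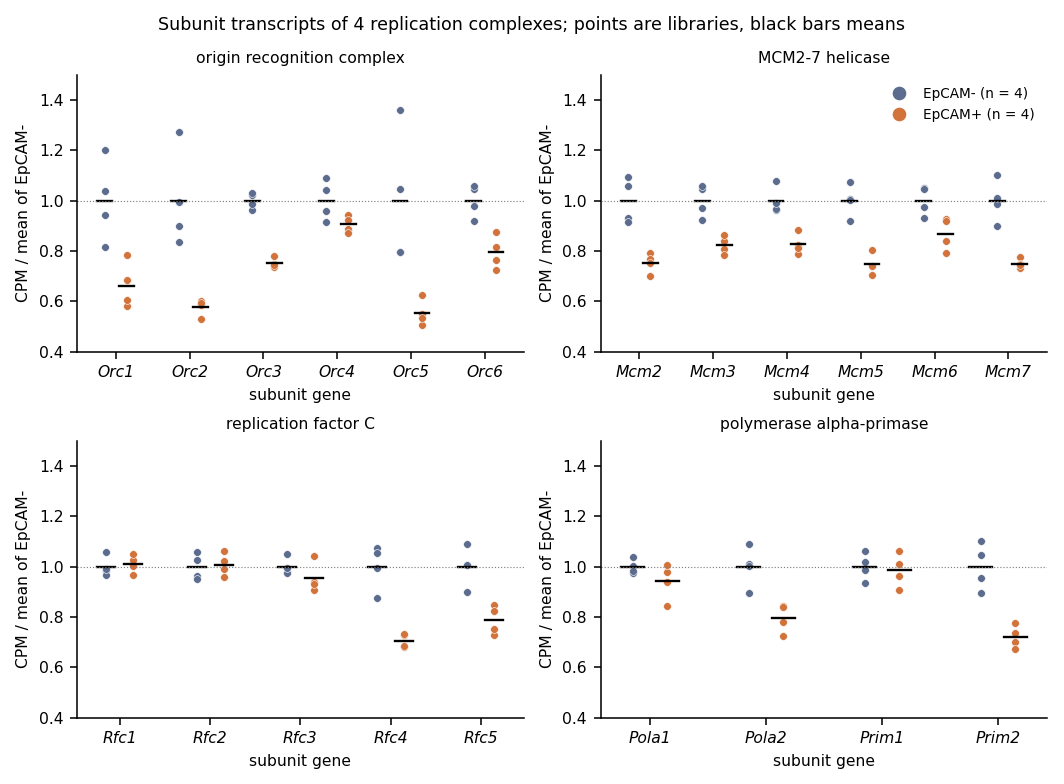
CPM of each subunit gene divided by its mean in the 4 EpCAM- libraries (y axis), for ORC, the MCM2-7 ring, replication factor C and polymerase alpha-primase. Points are libraries (EpCAM- blue, EpCAM+ orange, n = 4 each) and black bars are means, and Orc4, Rfc1, Rfc2, Rfc3, Pola1 and Prim1 are the genes whose fractions overlap.

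Of the 4 genes of polymerase alpha-primase, 2 fell, beside 20.8% lower among all tested genes. Prim2, the large primase subunit, was at 76.7, 89.8, 81.9 and 94.5 CPM in EpCAM- and at 60.0, 63.1, 57.6 and 66.5 CPM in EpCAM+ (log2 fold change -0.47 ± 0.08 SE, adjusted p = 0.00174). Pola2, the accessory subunit of the polymerase, was at 145, 164, 163 and 177 CPM in EpCAM- and at 127, 137, 118 and 137 CPM in EpCAM+ (log2 fold change -0.33 ± 0.08 SE, adjusted p = 0.00912). Neither gene had overlapping fractions. Both catalytic subunits lacked a call: Pola1, the polymerase, had a log2 fold change of -0.09 ± 0.07 SE (adjusted p = 0.351) and Prim1, the primase, of -0.02 ± 0.07 SE (adjusted p = 0.834).

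Within 1 complex, the ratio of 2 subunits is free of the scaling of a library. Over the 60 pairs of subunits in 9 complexes, the log2 ratio had no overlap between fractions in 29. Each of these 29 was at p = 0.0286, the smallest that an exact two-sided permutation test of 4 libraries against 4 can give, and with 29 pairs there the adjusted p could not go below 0.0591, so none passed. This does not show that the ratios were equal. By complex, the fractions did not overlap in 8 of 15 ratios of ORC, 6 of 15 of MCM2-7, 3 of 6 of GINS, 7 of 10 of replication factor C and 4 of 6 of polymerase alpha-primase. Pairs share subunits and are not independent. Ratios of other gene pairs were not examined, so these counts have no share over all genes to stand beside. Of the 13560 single genes tested, 2707 were lower and 2730 higher in EpCAM+ without overlap of the fractions. The ratio of Orc4 to Orc5 was 0.68 higher in EpCAM+ on the log2 scale, that of Rfc1 to Rfc4 0.51 higher and that of Prim1 to Prim2 0.45 higher, each without overlap of the fractions and each in 4 of 4 numbered pairs. These 3 pairs were chosen after their values were seen.

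Of the 5 genes of polymerases delta and epsilon, 4 fell. Pold2, which links the catalytic subunit of polymerase delta to its other subunits, was at 224, 243, 266 and 289 CPM in EpCAM- and at 177, 186, 192 and 194 CPM in EpCAM+, with no overlap (log2 fold change -0.45 ± 0.08 SE, adjusted p = 0.00241). Pold1, the catalytic subunit, was at 147, 134, 164 and 175 CPM in EpCAM- and at 122, 129, 121 and 133 CPM in EpCAM+, where the nearest libraries were close (log2 fold change -0.30 ± 0.09 SE, adjusted p = 0.0197). Pold3 fell by 0.19 and Pole2 by 0.31 on the log2 scale, both near the threshold (adjusted p = 0.0304 and 0.0435) and both without a call in 6 of the 8 fits that left out 1 library. Pole, the catalytic subunit of polymerase epsilon, went the other way without passing, with 29.8, 27.4, 38.5 and 37.4 CPM in EpCAM- and 37.2, 32.9, 37.3 and 36.7 CPM in EpCAM+. EpCAM- libraries 1 and 2 were its lowest and libraries 3 and 4 its highest, with EpCAM+ between them (log2 fold change 0.12 ± 0.12 SE, adjusted p = 0.454).

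Of the 3 genes of RPA, which coats single-stranded DNA, 1 fell. With so few genes, this count does not stand out from the 20.8% lower among all tested genes. Rpa2 was at 284, 307, 294 and 331 CPM in EpCAM- and at 252, 272, 263 and 268 CPM in EpCAM+, separate but narrowly so (log2 fold change -0.20 ± 0.07 SE, adjusted p = 0.0383), and the call was lost in 7 of the 8 fits without 1 library. Rpa1, the large subunit, was at 213, 215, 224 and 236 CPM in EpCAM- and at 202, 215, 192 and 208 CPM in EpCAM+ (log2 fold change -0.12 ± 0.07 SE, adjusted p = 0.17). Rpa3 had a log2 fold change of -0.02 ± 0.15 SE (adjusted p = 0.916), and its EpCAM- library 2 stood far above the others.

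On the lagging strand, Lig1, the ligase that seals Okazaki fragments, was at 215, 242, 232 and 249.6 CPM in EpCAM- and at 222, 246, 222 and 225 CPM in EpCAM+. Its fractions overlapped (log2 fold change -0.04 ± 0.07 SE, adjusted p = 0.703). Fen1, the flap nuclease, was at 12.2, 10.3, 14.0 and 11.4 CPM in EpCAM- and at 8.76, 9.36, 8.94 and 8.11 CPM in EpCAM+, and fell (log2 fold change -0.45 ± 0.13 SE, adjusted p = 0.0211). Its value is uncertain, because 84.2% of its exonic bases are shared with Tmem258 and Gm10143 on the opposite strand. Per the paper, RNA was amplified to double-stranded cDNA before library preparation, and no step that keeps the strand is described. The sources used here do not say whether reads were counted by strand. Reads of Fen1 and of its neighbors therefore cannot be told apart.

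Of the 5 genes of nucleotide supply, 3 fell. Rrm2, the regulated small subunit of ribonucleotide reductase at chr12:24708241-24714146 (GRCm38), was at 357, 395, 359 and 429 CPM in EpCAM- and at 241, 275, 197 and 230.3 CPM in EpCAM+. All EpCAM+ values were far below the lowest EpCAM- value, and the mean was 38.8% lower (log2 fold change -0.71 ± 0.11 SE, adjusted p = 0.000808). Rrm1, the large subunit, was at 488, 496, 536 and 651 CPM in EpCAM- and at 371, 408, 398 and 429 CPM in EpCAM+, and EpCAM- library 4 stood above the rest (log2 fold change -0.44 ± 0.10 SE, adjusted p = 0.00645). Dut, which removes dUTP, fell by 0.43 on the log2 scale. Tyms and Tk1, the enzymes of thymidylate synthesis and of thymidine salvage, had log2 fold changes of -0.04 ± 0.09 SE and -0.12 ± 0.09 SE and did not pass (adjusted p = 0.727 and 0.287).

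The 46 genes spanned a wide range of levels. Divided by the exonic length in the table, the highest mean levels in EpCAM- were 229.9 CPM per kb for Pcna, 216 for Dut and 183 for Mcm6. The lowest were 2.98 for Pole, 4.95 for Fen1 and 6.06 for Orc1. The level of Fen1 is uncertain, because 84.2% of its exonic bases are shared with genes on the opposite strand. The MCM2-7 genes lay between 55.2 CPM per kb for Mcm2 and 183 for Mcm6 in EpCAM-, whereas the ORC genes lay between 6.06 for Orc1 and 47.2 for Orc6. By the deposited FPKM, which rest on other gene lengths, 7 of the 10 highest and 8 of the 10 lowest genes in EpCAM- were shared with this order.

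A further 70 genes that act with this machinery were examined as a list, and 30 of them fell, 3 rose and 37 did not pass, with a median log2 fold change of -0.24, beside the 20.8% lower and 21.8% higher among all tested genes. With the replicate block, 37 of the 70 fell and 4 rose. Replication-coupled chromatin assembly had 7 of 10 genes lower, RNase H2 with flap processing and topoisomerases 4 of 8, origin firing kinases and scaffolds 5 of 9, and fork protection and checkpoint genes 2 of 7 (4 of 7 with the replicate block, which added Tipin and Wdhd1, paired adjusted p = 0.00106 and 0.0188). None of the genes in these 4 groups rose. Small polymerase subunits had 2 of 4 genes lower and alternative clamp loaders 1 of 4 (2 of 4 with the replicate block, which added Dscc1, paired adjusted p = 0.0271), and of 10 further nucleotide enzymes 2 fell and 2 rose. Asf1a, a histone chaperone, fell by 0.55 and Nasp, another, by 0.46 on the log2 scale (named after their values were seen).

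Of the 18 G1/S regulators, 7 fell and 1 rose, beside 20.8% lower and 21.8% higher among all tested genes. Ccne1, which encodes the cyclin that activates CDK2 at the start of S phase, was at 69.5, 74.8, 91.2 and 122 CPM in EpCAM- and at 20.1, 19.3, 16.3 and 20.6 CPM in EpCAM+. Among the 116 replication genes its log2 fold change was the largest in size (log2 fold change -2.23 ± 0.17 SE, adjusted p = 9.33e-05). E2f4, a repressor of the E2F family, was at 159, 165, 204 and 230.4 CPM in EpCAM- and at 107, 101, 105 and 105 CPM in EpCAM+, where the EpCAM+ libraries were nearly level (log2 fold change -0.86 ± 0.11 SE, adjusted p = 0.00044). E2f7, an atypical repressor E2F, was the reverse, with 14.0, 12.7, 13.4 and 11.2 CPM in EpCAM- and 17.8, 19.4, 20.7 and 21.9 CPM in EpCAM+ (log2 fold change 0.63 ± 0.11 SE, adjusted p = 0.00178).

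Among the genes with the smallest adjusted p that fell were also Lrwd1, which binds ORC (log2 fold change -0.48 ± 0.07 SE, adjusted p = 0.00093), Poldip2, a partner of polymerase delta (-0.63 ± 0.10 SE, adjusted p = 0.000984), and Mcmbp, which binds MCM proteins (-0.36 ± 0.06 SE, adjusted p = 0.00124). The remaining genes that rose were on the side of nucleotide pools. Rrm2b, the alternative small subunit of ribonucleotide reductase, was at 7.74, 7.33, 6.89 and 5.96 CPM in EpCAM- and at 10.9, 9.07, 10.6 and 9.34 CPM in EpCAM+. It was low but higher in every EpCAM+ library, while Rrm2 was lower in every one (Rrm2b log2 fold change 0.52 ± 0.14 SE, adjusted p = 0.0148). Samhd1, which degrades deoxynucleotides, was at 54.9, 44.2, 42.9 and 48.2 CPM in EpCAM- and at 85.3, 47.0, 56.8 and 76.8 CPM in EpCAM+, with overlap (log2 fold change 0.48 ± 0.17 SE, adjusted p = 0.0446), and its call was lost in 5 of the 8 fits without 1 library.

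**Figure D4:**
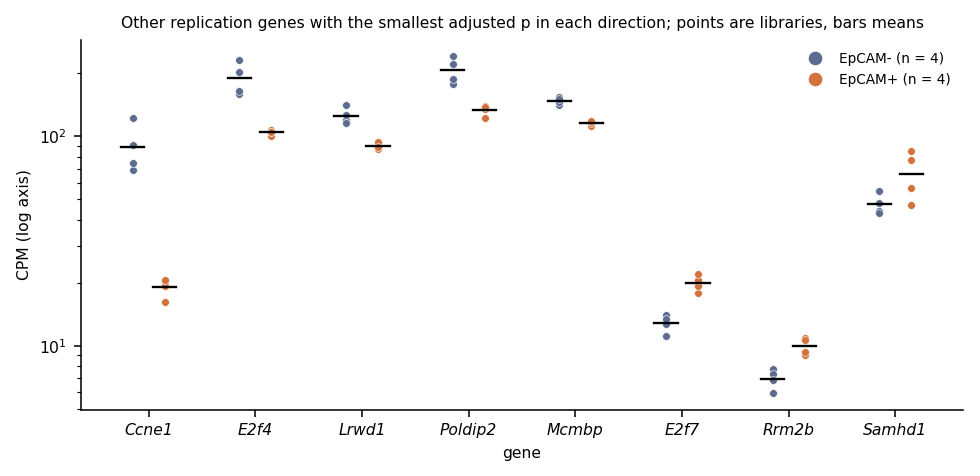
CPM (y axis, log scale) of the 8 other replication genes with the smallest adjusted p in each direction. Points are libraries (EpCAM- blue, EpCAM+ orange, n = 4 each) and bars are means, with Ccne1 at 69.5 to 122 CPM in EpCAM- and 16.3 to 20.6 CPM in EpCAM+.

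As a measure of the later cell cycle, 12 of 20 mitosis genes fell and 0 rose, beside 20.8% lower and 21.8% higher of all tested genes. Their median log2 fold change was -0.29, beside -0.31 for the 46 replication genes. Aurka, a mitotic kinase, fell by 0.51 and Ccnb1, the mitotic cyclin, by 0.56 on the log2 scale. The fall of Ccnb1 was the largest of the 20, so these 2 genes do not stand for the typical mitosis gene. Mki67, a marker of cycling cells, was at 152, 118, 144 and 160.0 CPM in EpCAM- and at 139, 134, 132 and 126 CPM in EpCAM+, and the fractions overlapped (log2 fold change -0.12 ± 0.09 SE, adjusted p = 0.341).

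The fractions also differed in markers of blood lineages. The 6 granulocyte-monocyte progenitor markers summed to 12058 to 18938 CPM in EpCAM- and 1152 to 2169 CPM in EpCAM+, and 5 of the 6 fell. Within EpCAM- this sum was highest in library 1 (18938 CPM), where the sum of the 46 replication genes was lowest (9447 CPM), and lowest in library 4 (12058 CPM), where that sum was highest (10925 CPM). The 8 erythroid markers summed to 2099, 2370.2, 5192 and 7017 CPM in EpCAM- libraries 1 to 4 and to 107 to 291 CPM in EpCAM+, and 7 of the 8 fell. Within EpCAM- the erythroid sums rose from library 1 to library 4, in the same order as the sums of the 46 replication genes. Neither order was tested. Klf1, a transcription factor that defines erythroid cells, was at 191, 178, 381 and 442 CPM in EpCAM- and low but not at 0 in EpCAM+, at 12.2, 12.9, 13.1 and 26.5 CPM. The 10 stem cell markers went the other way, with 9 of 10 higher in EpCAM+. Of the tested genes of the other marker lists, 4 of 6 mast and basophil and 3 of 7 mature myeloid genes fell, and 5 of 7 dendritic cell, 5 of 5 epithelial, 2 of 4 plasma cell, 2 of 4 B cell, 5 of 8 LSK, 1 of 5 megakaryocyte and 1 of 1 T and NK cell genes rose, beside 20.8% lower and 21.8% higher of all tested genes, so that the megakaryocyte share is near that of all genes. The LSK list shares Ly6a, Slamf1 and Procr with the stem cell markers and Gata2 with the mast and basophil list, so these counts are not independent. Only 1 of 8 listed T and NK cell, 4 of 8 B cell and 4 of 7 plasma cell genes passed the filter on low counts. A gene near 0 in EpCAM- can pass this filter through its EpCAM+ values alone, so such shares can lean toward higher calls. The part of these lineage differences in the lower replication genes was not tested.

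EpCAM- libraries 3 and 4 had the highest erythroid sums and the lowest Ly6a, and EpCAM- library 4 held the highest value of the 8 libraries in 27 of the 46 replication genes. Without these libraries, 15 of the 46 genes were called lower, against 1700 of 14491 tested genes (11.7%), and 0 higher. All 30 genes that fell with 8 libraries kept a negative log2 fold change, and the median of the 46 was -0.28. The remaining libraries are among those that gave the 30 calls. EpCAM- libraries 1 and 2 still had erythroid sums of 2099 and 2370 CPM, against 107 to 291 CPM in EpCAM+. The part of the erythroid markers was therefore not tested by this fit. The 15 genes still called were Orc2, Orc3, Orc5, Cdc6, Cdt1, Mcm2, Mcm5, Mcm7, Mcm10, Cdc45, Rfc4, Prim2, Pold2, Rrm1 and Rrm2. With upper-quartile scaling, which gave more higher than lower calls over all genes (3642 against 2083), 24 of the 46 genes were called lower and 0 higher.

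**Figure D5:**
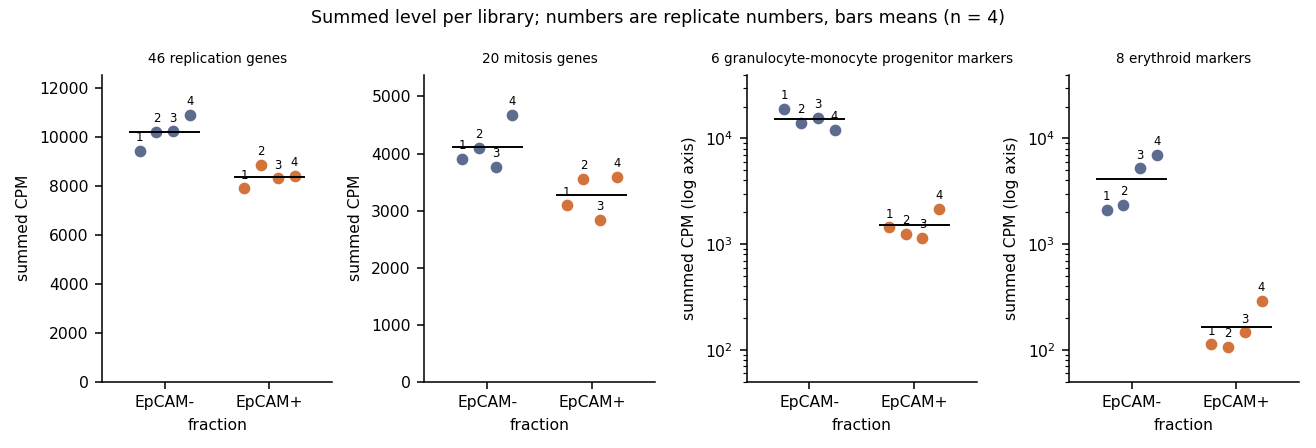
Summed CPM per library (y axis, logarithmic in the 2 panels on the right) of the 46 replication genes, 20 mitosis genes, 6 granulocyte-monocyte progenitor markers and 8 erythroid markers, by fraction. Points are libraries with their replicate numbers and bars are means (n = 4), and the replication sums of 7912 to 8863 CPM in EpCAM+ lie below the 9447 to 10925 CPM of EpCAM-.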

How the data were processed

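The authors deposited 1 table with raw counts, FPKM and columns of their own comparisons (log2 fold changes, p-values and adjusted p, for EpCAM+ against EpCAM- and for 4 pairs of single libraries). The comparison columns were not used. Per the submitters' processing notes, reads were aligned to GRCm38.p6 with STAR 2.6.1d and counted with featureCounts 1.5.0-p3, and DESeq2 1.20.0 was used. Whether reads were counted by strand is not given in the sources used here, and the paper describes no strand-keeping step for these libraries. The deposited counts are whole reads per gene without normalization. The FPKM, also computed by the authors, imply other lengths than the length column and served only as an alternative for the order of levels. The length column equals the union of exons in GENCODE M21 (GRCm38) for 45 of the 46 genes, and 8 of the 46 share over 10% of their exonic bases with another gene (Orc1, Orc2, Mcm7, Gins2, Rfc2, Rfc4, Rfc5 and Fen1). The limit given for Fen1 holds for the shared bases of all 8.

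Counts were filtered with filterByExpr, scaled by TMM and tested with edgeR 4.0.16 (quasi-likelihood, two-sided, R 4.3.3) over all 13560 genes, calling genes with a Benjamini-Hochberg adjusted p under 0.05. The fit used all 8 libraries and the fraction as the only term. The SE was derived from the F statistic. Log2 CPM used a prior count of 2. The procedure was tested on simulated data. Plots used matplotlib 3.10.9 (Python 3.11.15). Reads carry no molecular identifiers, so p-values cover these libraries and not amplification error within each.

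The replicate numbers paired the samples: deviations from the fraction means correlated at 0.205 to 0.356 across genes in the 4 pairs of equal number and at -0.216 to 0.0396 in the other 12. The labels do not say what a number shares. The fit with the replicate block was an alternative and called 32 of the 46 genes lower.

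The 46 genes, the 70 other replication genes, the marker lists, the tests and the alternatives were chosen with earlier results of these data known. Values per library were printed for the 2 genes of each role with the smallest adjusted p and for genes against the direction of their role. Of the other replication genes, up to 5 with the smallest adjusted p in each direction were named, and Epcam, Zeb1, Mki67 and up to 3 genes of a marker list. Orc4, Orc5, Mcm6 and the subunit ratios were picked out after their values were seen. The alternatives were DESeq2 1.42.0, RLE, upper-quartile and library-total scaling, removal of immunoglobulin genes, filters of 1 count in any or 10 in all libraries, only protein-coding genes, the replicate block, and each library left out. Leaving out EpCAM- libraries 3 and 4 together was added after seeing the data.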

Additional observations from a re-analysis of the deposited data

Results flagged for a closer look

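In 3 of 114 groups of 4 libraries, 1 library lay far from the other 3 by Dixon's ratio, which chance gives in about 1 in 20 groups. Pole, the catalytic subunit of polymerase epsilon, was at 32.9 CPM in EpCAM+ library 2 and at 36.7 to 37.3 CPM in the other EpCAM+ libraries. Rpa3, the smallest RPA subunit, was at 82.1 CPM in EpCAM- library 2 and at 49.6 to 54.8 CPM in the other EpCAM- libraries. Lig1, the replicative ligase, was at 246 CPM in EpCAM+ library 2 and at 222 to 225 CPM in the other EpCAM+ libraries. None of these 3 genes had a call between the fractions.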

How the results depend on the processing

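Apart from leaving out 2 EpCAM- libraries at once, the number of replication genes called lower stayed within 1.5 times of 30 under all other alternatives (21 with library totals to 32 with the replicate block, and 24 to 30 without 1 library), and 0 were called higher in any. The added alternative without EpCAM- libraries 3 and 4 called 15 of the 46 genes and 15 of the 70 other replication genes lower, with fewer samples. Of the 30 genes, 23 were called without each library in turn, and 15 in all 18 alternatives. Gmnn, Gins1, Pold1, Pold3, Pole2, Rpa2 and Fen1 lost the call in 2 to 7 of the fits without 1 library. Mcm6 gained a call with DESeq2, the replicate block and without EpCAM- library 2, and Pcna with the replicate block. The paired fit changed no other call among the 46 genes. Among the 70 other replication genes it added Tipin, Wdhd1, Dscc1, Top2b, Dctd, Ccne2 and E2f6 to those called lower (37 against 30) and Tk2 to those called higher (4 against 3), and it called 14 against 12 mitosis genes lower and 7 against 5 LSK genes and 2 against 1 megakaryocyte genes higher. The other replication genes called higher numbered 8 with upper-quartile scaling and 6 with library totals, against 3. These scalings moved the median of all genes from 0.02 to 0.11 and that of the 46 genes to -0.23 in both, and the share of lower calls among all calls from 48.8% to 36.4% and 37.3%.

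The log2 fold changes of some genes near 0 and without a call changed sign. Gins4 was at -0.0144 with DESeq2, -0.00327 with RLE, -0.0105 with the 1-count filter, -0.00145 without EpCAM- libraries 3 and 4 and -0.0271 to 0.0360 without 1 library. Rfc1 was at -0.00269 with DESeq2 and -0.00718 to 0.0400 without 1 library. Rfc2 was at -0.00893 with DESeq2, -0.00508 with the 1-count filter, -0.0609 without EpCAM- libraries 3 and 4 and -0.0191 to 0.0304 without 1 library. With upper-quartile scaling and library totals, Rfc3 was at 0.0204 and 0.0198, Prim1 at 0.0655 and 0.0645, Rpa3 at 0.0613 and 0.0631, Lig1 at 0.0499 and 0.0497 and Tyms at 0.0438 and 0.0436, and Pola1 was at 0.00119 with upper-quartile scaling. With the 10-count filter Prim1 was at 0.00437 and Rpa3 at 0.00214, and Rpa3 was at 0.00118 with the replicate block. Without 1 library Prim1 was at -0.0599 to 0.0105, Rpa3 at -0.106 to 0.164 and Tyms at -0.113 to 0.00205. The cause of these changes was not tested. Depth was not varied. The gene with the fewest reads of the 46, Fen1, had 125 reads or more in each library of at least 14114491 reads, and it lost its call with library totals, with the 1-count filter and without EpCAM- library 3 or EpCAM+ library 4.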
